A study of Mus musculus with 6 samples.

Results

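The insulin-like growth factor (IGF) family was read in L929 cells, an established mouse fibroblast line, after co-culture with tumour cells. Its members here are 10 genes fixed by name, the ligands Igf1 and Igf2, the receptors Igf1r and Igf2r, and the binding proteins Igfbp2 to Igfbp7, out of 21929 genes in the deposited table. Each symbol matched 1 row. RNA-seq was made of 3 Biotin-positive libraries, of L929 cells marked as having met the tumour cells, which the labels name only as MFCSTCL. It was also made of 3 Biotin-negative libraries, of co-cultured L929 cells without that contact. All 6 share the line, the co-culture and 1 batch label, no allele or agent is named, and no L929 cells kept without tumour cells are part of the comparison. L929 descends from 1 clone, and the labels do not say whether replicates are separate cultures, and the p-values below therefore measure no more than how libraries vary, which may be technical.

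IGF1 and IGF2 are secreted peptides that signal through the receptor tyrosine kinase IGF1R to the PI3K and AKT kinases and promote growth and survival. The unrelated receptor IGF2R takes up IGF2 for degradation in lysosomes, and also carries lysosomal enzymes tagged with mannose 6-phosphate. The IGFBP proteins bind the ligands outside the cell and hold them from, or deliver them to, the receptor, and fibroblasts are a known source of several of them.

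In Biotin-positive cells the transcripts of the 2 most abundant binding proteins, Igfbp4 and Igfbp6, and of the clearance receptor Igf2r were each at less than 0.5 times their Biotin-negative level. Igfbp5 was near 0 in Biotin-positive cells, and Igfbp7 was the only tested member that was higher. Igf1r differed little. Igf1 was below 1 FPKM in every library and lower in Biotin-positive cells, and the Igf2 locus gave a low signal that was almost limited to Biotin-positive cells. Expression is given as FPKM, in which fragments are divided by the length of the gene and the size of the library, so levels can be compared between genes. A gene was tested where 3 or more of the 6 libraries reached 1 FPKM, which held for 6 of the 10 members and for 11029 genes in all. The test was limma on log2(FPKM + 1), and differences are on that scale, Biotin-positive minus Biotin-negative, which understates the change of low genes.

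Of the 6 tested members, 5 were lower in Biotin-positive cells and 1 was higher at an adjusted p of 0.05. Over all tested genes 36.1% were lower and 37.8% were higher, so that a called gene is the usual case in this comparison. The median difference of the tested members was -1.09, beside 0.01 over all tested genes. All 6 tested members had groups that did not overlap, as did 76.9% of all tested genes. Igfbp5 passed the filter only through the Biotin-negative libraries, so that it had to differ. The 4 members that did not reach testing were Igf1, Igf2, Igfbp2 and Igfbp3.

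**Figure D1:**
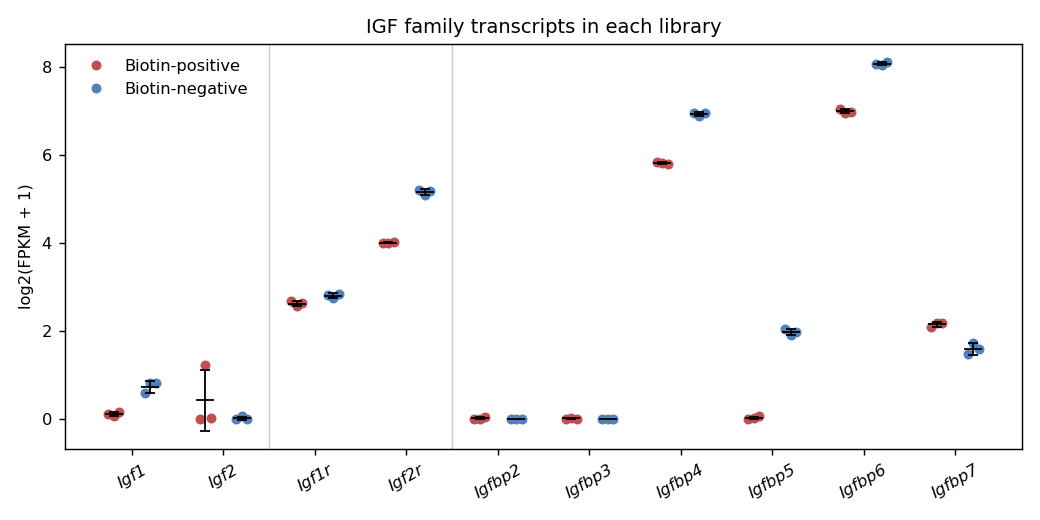
Level of each IGF family gene as log2(FPKM + 1) on the y axis, with 1 point per library, Biotin-positive (red) left of Biotin-negative (blue), the mean as a long bar and the SD as whiskers (n = 3 each); vertical lines divide ligands, receptors and binding proteins. Igfbp6 and Igfbp4 stand highest in both groups and lower in Biotin-positive cells, Igfbp5 is near 0 in Biotin-positive cells, and 1 Biotin-positive library stands apart for Igf2.

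Both ligand genes were weakly expressed; gene coordinates are those of the deposited table, on GRCm38. Igf1 (ENSMUSG00000020053, chr10:87858265-87937042), the ligand with the highest affinity for IGF1R, was at 0.0891, 0.0411 and 0.120 FPKM in Biotin-positive libraries 1 to 3, against 0.494, 0.749 and 0.767 FPKM in Biotin-negative libraries 1 to 3. Every Biotin-positive library lay below every Biotin-negative one. The mean was 0.0835 ± 0.0399 FPKM in Biotin-positive cells and 0.670 ± 0.153 FPKM in Biotin-negative cells (SD, n = 3 each), a ratio of 0.125. Igf1 was below the level for testing. Without the filter on low values, where limma was fitted to 17058 genes, its difference was -0.62 (SE 0.0704, adjusted p = 0.000407).

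Igf2 (ENSMUSG00000048583, chr7:142650766-142666816), an imprinted gene that encodes a fetal growth factor, was listed at 0.00663, 1.33 and 0.0221 FPKM in Biotin-positive libraries 1 to 3, against 0, 0.0401 and 0 FPKM in Biotin-negative libraries. Only Biotin-positive library 2 was above 1 FPKM, and the groups overlapped. A second gene model, Gm49394, lies on the same strand and shares 3596 exonic bases with Igf2, which is 62.8% of the exonic bases of Igf2 and 75.9% of those of Gm49394. Reads from the shared exons cannot be assigned to one of them by position. Gm49394 was at 1.22, 0.145 and 1.33 FPKM in Biotin-positive libraries and was listed at 0 in all 3 Biotin-negative ones. It was high in the Biotin-positive libraries in which Igf2 was low, and low where Igf2 was high.

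The sum of the Igf2 and Gm49394 rows was 1.23, 1.48 and 1.35 FPKM in Biotin-positive libraries, against 0, 0.0401 and 0 FPKM in Biotin-negative libraries. Summed, every Biotin-positive library stood above every Biotin-negative one, with a mean of 1.35 ± 0.123 FPKM in Biotin-positive cells and 0.0134 ± 0.0231 FPKM in Biotin-negative cells (SD, n = 3 each). The pair was summed after its values were seen, and no test was made on it. FPKM values of unequal gene lengths do not add up to the FPKM of a joint gene, so the sum is a description of the locus. Ins2, the insulin gene 11839 bases from Igf2, was listed at 0 in all 6 libraries. The opposite-strand transcript Igf2os shares 98 exonic bases with Igf2, and whether the counting used strand is not given in the sources used here.

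**Figure D2:**
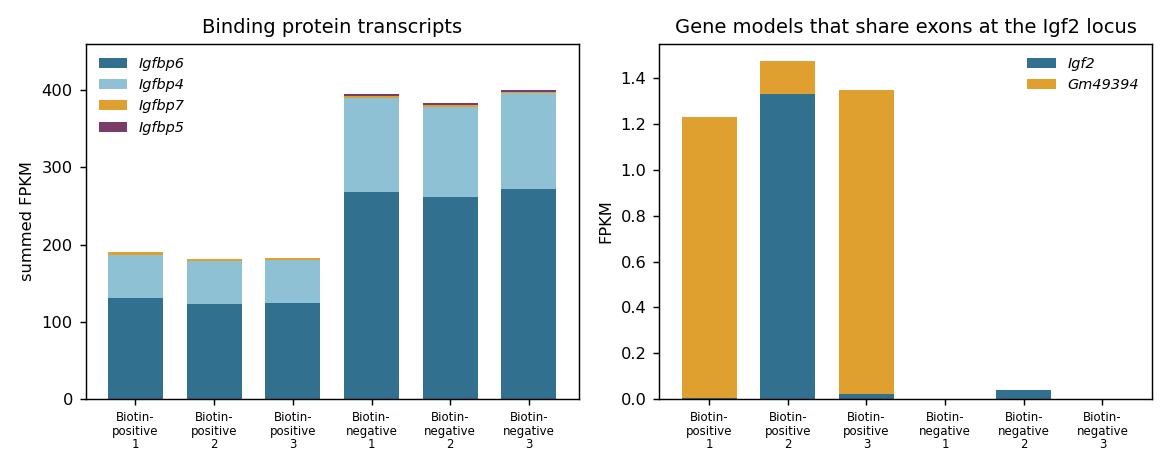
Left, summed FPKM of the binding protein genes in each library, stacked by gene; right, FPKM of Igf2 and of Gm49394, which shares exons with it, stacked in each library, with Biotin-positive libraries left of Biotin-negative ones in both panels. The binding protein sum was 182 to 190 FPKM in Biotin-positive libraries and 383 to 401 FPKM in Biotin-negative ones, and at the Igf2 locus most of the signal of each Biotin-positive library stood on 1 of the gene models.

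The receptors moved unequally. Igf2r (ENSMUSG00000023830, chr17:12682406-12769664), the receptor that clears IGF2, was at 15.0, 14.9 and 15.3 FPKM in Biotin-positive libraries, against 35.8, 33.0 and 35.1 FPKM in Biotin-negative libraries. The groups were far apart beside the spread within each of them. The mean was 15.1 ± 0.196 FPKM in Biotin-positive cells and 34.7 ± 1.47 FPKM in Biotin-negative cells (SD, n = 3 each), and the difference was -1.15 (SE 0.0411, limma adjusted p = 5.74e-08). Airn, an antisense transcript that starts within Igf2r, shares no exonic bases with it in the annotation.

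Igf1r (ENSMUSG00000005533, chr7:67952827-68233668), the signalling receptor, was at 5.40, 4.89 and 5.17 FPKM in Biotin-positive libraries, against 6.06, 5.68 and 6.20 FPKM in Biotin-negative libraries. The lowest Biotin-negative library lay just above the highest Biotin-positive one. The difference of -0.18 (SE 0.0582) passed at a limma adjusted p = 0.0201. It no longer passed when Biotin-positive replicate 2 was left out (limma adjusted p = 0.0743). The same held on leaving out Biotin-negative replicate 1, where the limma adjusted p was 0.0522, or Biotin-negative replicate 3, where it was 0.0670. Over 18 alternatives its difference stayed between -0.26 and -0.15, with an adjusted p between 0.00607 and 0.0743.

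The ratio of Igf2r to Igf1r FPKM was 2.93 ± 0.133 in Biotin-positive cells and 5.80 ± 0.126 in Biotin-negative cells (SD, n = 3 each). The groups did not overlap in it, and the clearance receptor was above the signalling receptor in all 6 libraries. Insr, the insulin receptor, can form hybrids with IGF1R and was at 4.72 ± 0.272 FPKM in Biotin-positive cells and 8.81 ± 0.350 FPKM in Biotin-negative cells. The ratio of Igf1r to Insr was 1.09 ± 0.0832 in Biotin-positive cells and 0.679 ± 0.0373 in Biotin-negative cells, again without overlap.

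Among the binding proteins, Igfbp6 stood highest in every library. Igfbp6 (ENSMUSG00000023046, chr15:102144362-102149511), which binds IGF2 in preference to IGF1, was at 131, 123 and 125 FPKM in Biotin-positive libraries, against 268, 262 and 273 FPKM in Biotin-negative libraries. Each Biotin-positive library was below 0.5 times the mean of the Biotin-negative ones. The difference was -1.08 (SE 0.0327, limma adjusted p = 2.53e-08). Igfbp4 (ENSMUSG00000017493, chr11:99041244-99054392), which in most settings inhibits IGF action and is released from the ligand by the protease PAPP-A, was at 55.9, 55.3 and 54.5 FPKM in Biotin-positive libraries, against 122, 117 and 123 FPKM in Biotin-negative libraries. Its difference was -1.11 (SE 0.0317, limma adjusted p = 1.87e-08), again without overlap.

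Igfbp5 (ENSMUSG00000026185, chr1:72857932-72874884), which also binds extracellular matrix, was at 0, 0.0171 and 0.0389 FPKM in Biotin-positive libraries, against 3.15, 2.75 and 2.91 FPKM in Biotin-negative libraries. It was near 0 in all 3 Biotin-positive libraries and moderate in all 3 Biotin-negative ones. The difference was -1.95 (SE 0.0645, limma adjusted p = 3.82e-08), a p that the filter helped to fix, since Igfbp5 entered the test only through the group where it is high. Without the filter on low values, in the fit to 17058 genes, the difference was the same with a limma adjusted p = 1.04e-06. With a pseudocount of 0.1 in place of 1 the difference was -4.69. With each library rescaled to the same larger sum it was -3.20. That scaling raises every value while the pseudocount stays at 1, so it acts like a smaller pseudocount. Igfbp7 (ENSMUSG00000036256, chr5:77349240-77408041), a secreted protein of the vessel wall and matrix that binds IGFs only weakly, was at 3.25, 3.54 and 3.55 FPKM in Biotin-positive libraries, against 1.76, 2.32 and 2.00 FPKM in Biotin-negative libraries. It was the only tested member to rise, by 0.56 (SE 0.0785, limma adjusted p = 0.000223). Polr2b, on the opposite strand, shares 85 bases with it, 7.03% of the exonic bases of Igfbp7, and was at 27.7 ± 0.522 FPKM in Biotin-positive cells and 22.3 ± 1.71 FPKM in Biotin-negative cells. The part of these shared bases in the Igfbp7 values was not tested.

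Igfbp2 (ENSMUSG00000039323, chr1:72824503-72852474), a carrier of both ligands, was above 0 only in Biotin-positive library 3, at 0.0305 FPKM. Igfbp3 (ENSMUSG00000020427, chr11:7206086-7213923), the main carrier of IGFs in blood, was above 0 only in Biotin-positive library 2, at 0.0204 FPKM. Neither had a value above 0 in a Biotin-negative library, and neither was tested. Igfbp1, a relative that is not among the 10 members, was listed at 0 in all 6 libraries, and Igfbpl1 reached at most 0.127 FPKM in Biotin-positive libraries and 0.0250 FPKM in Biotin-negative ones. Igfbp2 and Igfbp5 face each other on chromosome 1 with 5457 bases between them, so a gene at 0 in most libraries lies beside one that was at about 3 FPKM in Biotin-negative cells. No annotated transcript of another gene covered any stretch of at least 100 bases at 98% identity in the longest coding transcript of any member except Igf2.

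**Figure D3:**
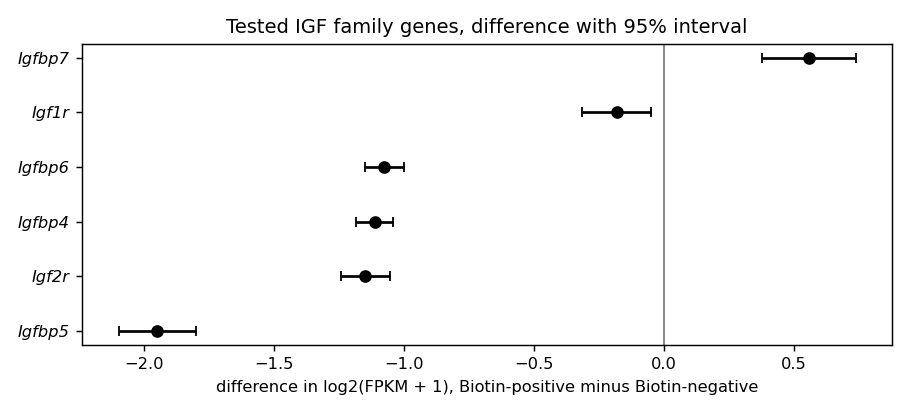
Difference in log2(FPKM + 1), Biotin-positive minus Biotin-negative, on the x axis for each of the 6 tested members, with the 95% interval of the limma fit as whiskers. Igfbp7 lies to the right of 0, Igf1r just to the left of it, Igfbp6, Igfbp4 and Igf2r lie together between -1.08 and -1.15, and Igfbp5 lies farthest to the left at -1.95.

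The binding protein transcripts summed to 190.0, 182 and 183 FPKM in Biotin-positive libraries, against 395, 383 and 401 FPKM in Biotin-negative libraries. The sum was 185 ± 4.34 FPKM in Biotin-positive cells and 393 ± 8.89 FPKM in Biotin-negative cells (SD, n = 3 each). The main parts of the sum held close shares in both groups. Igfbp6 held 68.3 ± 0.609% of it in Biotin-positive cells and 68.1 ± 0.221% in Biotin-negative cells, and the groups overlapped. Igfbp4 held 29.8 ± 0.487% in Biotin-positive cells and 30.7 ± 0.262% in Biotin-negative cells, with groups that just did not overlap. The ratio of Igfbp6 to Igfbp4 was 2.29 ± 0.0574 in Biotin-positive cells and 2.22 ± 0.0262 in Biotin-negative cells, and the groups overlapped. The minor members differed. Igfbp7 held 1.86 ± 0.134% in Biotin-positive cells and 0.517 ± 0.0807% in Biotin-negative cells. Igfbp5 held 0.0102 ± 0.0106% in Biotin-positive cells and 0.747 ± 0.0430% in Biotin-negative cells. In bulk RNA, fewer cells that express a gene and less of its RNA per cell cannot be told apart.

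Promoter sequences of 4 members are shown because these members fell or rose in different ways: Igf2r and Igfbp4 fell by about the same amount, Igfbp5 was near 0 in Biotin-positive cells, and Igfbp7 rose. Each is the 250 bases before the gene start in RefSeq, on GRCm38.p6, 5′ to 3′ on the strand of the gene. Capitals mark matches on either strand to 5 motifs. The core promoter box was searched as the letters TATAAA. A box bound by the NF-Y factor was searched as CCAAT. The SP1 box was searched as GGGCGG, and the E-box, a site of basic helix-loop-helix factors, as CACGTG. The motif of TEAD factors was searched as GGAATG. Igf2r is at chr17:12769707-12769956 on the minus strand, Igfbp4 at chr11:99040994-99041243 on the plus strand, Igfbp5 at chr1:72874866-72875115 on the minus strand and Igfbp7 at chr5:77408046-77408295 on the minus strand.
Igf2r: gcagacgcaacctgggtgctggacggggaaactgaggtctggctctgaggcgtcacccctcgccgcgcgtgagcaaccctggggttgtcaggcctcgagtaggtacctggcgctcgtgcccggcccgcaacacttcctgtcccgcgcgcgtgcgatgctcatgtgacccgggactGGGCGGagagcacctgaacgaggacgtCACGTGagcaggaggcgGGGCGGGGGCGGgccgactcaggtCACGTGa
Igfbp4: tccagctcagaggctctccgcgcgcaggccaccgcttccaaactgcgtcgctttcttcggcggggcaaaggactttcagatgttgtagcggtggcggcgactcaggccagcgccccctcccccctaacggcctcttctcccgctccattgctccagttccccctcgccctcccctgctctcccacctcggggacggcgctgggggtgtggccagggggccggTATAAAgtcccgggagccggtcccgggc
Igfbp5: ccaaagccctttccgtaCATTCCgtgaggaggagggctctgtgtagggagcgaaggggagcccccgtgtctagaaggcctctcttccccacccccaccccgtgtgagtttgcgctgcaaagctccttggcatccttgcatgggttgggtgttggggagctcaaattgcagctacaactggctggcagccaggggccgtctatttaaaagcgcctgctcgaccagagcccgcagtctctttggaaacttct
Igfbp7: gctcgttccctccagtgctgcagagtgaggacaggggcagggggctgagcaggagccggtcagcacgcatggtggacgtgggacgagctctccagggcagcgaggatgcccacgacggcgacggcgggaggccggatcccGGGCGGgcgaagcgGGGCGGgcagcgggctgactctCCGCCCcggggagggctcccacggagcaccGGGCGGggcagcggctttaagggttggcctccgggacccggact

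The 4 windows differed in their matches. Igf2r held 3 SP1 boxes and 2 E-boxes, the nearest E-box 7 bases before the start. Igfbp4 held 1 core promoter box, 28 bases before the start, and no other match. Igfbp5 held 1 TEAD motif, 233 bases before the start, and Igfbp7 held 4 SP1 boxes. Of 32851 RefSeq windows of the same length, 12.4% held the core promoter box, 33.8% the NF-Y box, 32.7% the SP1 box, 6.02% the E-box and 12.6% the TEAD motif. CpG pairs numbered 27 in the Igf2r window, 26 in that of Igfbp7, 22 in that of Igfbp4 and 10 in that of Igfbp5. All lie above the median of 6 over the 32851 windows. A match is a description of these letters, and none of them was measured as a bound site here.

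By the likeness of their pattern over the 6 libraries, measured as the root mean square difference of centred log2(FPKM + 1), the genes nearest to Igfbp5 were Mtss2 (0.0326), Lbh (0.0356) and H2-T23 (0.0457). Mtss2, which encodes a membrane-bending actin regulator, was at 5.10 ± 0.0952 FPKM in Biotin-positive cells and 23.0 ± 1.38 FPKM in Biotin-negative cells. The likeness to Igfbp5 depends on the pseudocount of 1, which understates the fall of a gene near 0. With a pseudocount of 0.1 the difference was -4.69 for Igfbp5, against -2.147 for Mtss2, -1.963 for Lbh and -1.904 for H2-T23. The genes nearest to Igfbp7 were Chmp1b (0.0220), Mogat2 (0.0259) and Cstb (0.0415). Cstb, a cysteine protease inhibitor, was at 168 ± 6.14 FPKM in Biotin-positive cells and 113 ± 5.81 FPKM in Biotin-negative cells. These genes were picked for their likeness, and no test applies to it.

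Genes that act on the ligands and binding proteins outside the cell moved in both directions. Of 18 listed proteases, their inhibitors and partners, 8 were tested: 4 were lower, 2 higher and 2 did not pass, with a median difference of -0.27, beside 36.1% lower and 37.8% higher over all tested genes. Without the filter on low values 5 were lower and 4 higher. Htra1, a secreted serine protease that can cleave IGF-binding proteins, was at 132, 134 and 130 FPKM in Biotin-positive libraries, against 281, 270.03 and 280 FPKM in Biotin-negative libraries. Its groups were far apart, and the difference of -1.06 (SE 0.0291, limma adjusted p = 1.52e-08) was close to those of Igfbp4 and Igfbp6. Htra3, a related protease, was at 7.26 ± 0.664 FPKM in Biotin-positive cells and 10.9 ± 1.14 FPKM in Biotin-negative cells (limma adjusted p = 0.000508). Lrp1, an endocytic receptor, was at 23.8 ± 0.662 FPKM in Biotin-positive cells and 35.4 ± 2.02 FPKM in Biotin-negative cells (limma adjusted p = 8.83e-06). Ctsd, a lysosomal protease, was at 199 ± 5.17 FPKM in Biotin-positive cells and 280 ± 3.95 FPKM in Biotin-negative cells (limma adjusted p = 1.02e-06). The gene model Gm49369 shares 34.4% of the exonic bases of Ctsd on the same strand, so its level is uncertain. The 2 that were higher were Furin and Tmem219. Furin was at 25.4 ± 1.22 FPKM in Biotin-positive cells and 20.1 ± 0.480 FPKM in Biotin-negative cells (limma adjusted p = 0.000195). Tmem219 was at 15.1 ± 0.750 FPKM in Biotin-positive cells and 12.1 ± 1.04 FPKM in Biotin-negative cells (limma adjusted p = 0.00288). The protease gene Pappa and its relative Pappa2 stayed below 0.04 FPKM in every library.

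Receptor partners, substrates and adaptors moved in both directions. Of 24 listed, 19 were tested: 6 were higher, 7 lower and 6 did not pass, with a median of -0.03. The shares over all tested genes were 37.8% higher and 36.1% lower. Mdm2, a ubiquitin ligase that can act on IGF1R, was at 49.9 ± 1.92 FPKM in Biotin-positive cells and 24.0 ± 0.572 FPKM in Biotin-negative cells (difference 1.03, limma adjusted p = 8.01e-08). Insr fell, with the levels given above (difference -0.78, limma adjusted p = 3.80e-06). The adaptor gene Sh2b2 was at 5.21 ± 0.258 FPKM in Biotin-positive cells and 9.54 ± 0.808 FPKM in Biotin-negative cells (limma adjusted p = 1.25e-05). Socs2, a suppressor of growth hormone signalling, was at 5.08 ± 0.181 FPKM in Biotin-positive cells and 8.90 ± 0.241 FPKM in Biotin-negative cells (limma adjusted p = 3.44e-06).

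The PI3K, AKT, mTOR and FOXO cascade also went both ways. Of 37 listed genes 33 were tested: 12 were higher, 13 lower and 8 did not pass, with a median of -0.04. Of all tested genes, 37.8% were higher and 36.1% lower. The regulatory PI3K subunit gene Pik3r2 was lower, at 10.4 ± 3.00 FPKM in Biotin-positive cells and 25.6 ± 3.91 FPKM in Biotin-negative cells (limma adjusted p = 0.000273). Pik3r1, also regulatory, was at 5.98 ± 0.292 FPKM in Biotin-positive cells and 10.7 ± 0.149 FPKM in Biotin-negative cells (limma adjusted p = 2.34e-06). Pik3r3, the other regulatory subunit gene listed, was below the level for testing, at 0.717 ± 0.0335 FPKM in Biotin-positive cells and 0.340 ± 0.0458 FPKM in Biotin-negative cells, without overlap in the opposite direction. The catalytic subunit gene Pik3cb was higher, at 9.98 ± 0.399 FPKM in Biotin-positive cells and 5.56 ± 0.199 FPKM in Biotin-negative cells (limma adjusted p = 2.95e-06).

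Of 15 listed regulators of IGF transcripts, 10 were tested, with a median of 0.03. Beside 37.8% higher and 36.1% lower over all tested genes, 4 of them were higher, 4 lower and 2 did not pass. The members that were higher include the chromatin proteins of the HMGA family and an mRNA-binding protein named for Igf2. Hmga1 was at 89.6, 61.9 and 50.4 FPKM in Biotin-positive libraries, against 16.5, 17.6 and 17.2 FPKM in Biotin-negative libraries. Its Biotin-positive libraries were widely spread but all above the Biotin-negative ones (difference 1.88, SE 0.170, limma adjusted p = 1.38e-05). A near-identical copy, Hmga1b, matches 76.9% of the Hmga1 transcript, so its level is uncertain. Hmga2 was at 113 ± 2.46 FPKM in Biotin-positive cells and 62.1 ± 1.81 FPKM in Biotin-negative cells (limma adjusted p = 8.73e-08). Igf2bp1 was at 5.11 ± 0.220 FPKM in Biotin-positive cells and 2.28 ± 0.265 FPKM in Biotin-negative cells (limma adjusted p = 7.18e-06). Ghr, the growth hormone receptor gene, was at 13.1 ± 0.301 FPKM in Biotin-positive cells and 7.44 ± 0.480 FPKM in Biotin-negative cells (limma adjusted p = 3.50e-06).

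All 12 genes of lysosomal enzyme sorting were tested: 4 were higher, 4 lower and 4 did not pass, with a median of -0.02. These counts stand beside 37.8% higher and 36.1% lower over all tested genes. M6pr, the other mannose 6-phosphate receptor, was at 64.8, 64.9 and 63.5 FPKM in Biotin-positive libraries, against 38.0, 40.6 and 40.8 FPKM in Biotin-negative libraries. It moved opposite to Igf2r (difference 0.68, SE 0.0364, limma adjusted p = 5.17e-07), and the ratio of Igf2r to M6pr was 0.234 ± 0.00601 in Biotin-positive cells and 0.872 ± 0.0661 in Biotin-negative cells. The sorting adaptor genes Gga2 and Gga3 were lower, Gga2 at 9.31 ± 0.364 FPKM in Biotin-positive cells and 15.2 ± 0.603 FPKM in Biotin-negative cells. Gga3 was at 7.78 ± 0.255 FPKM in Biotin-positive cells and 11.7 ± 0.517 FPKM in Biotin-negative cells. Gnptg, a subunit of the enzyme that makes the mannose 6-phosphate tag, was at 9.36 ± 0.282 FPKM in Biotin-positive cells and 15.0 ± 0.825 FPKM in Biotin-negative cells, and shares 49.5% of its exonic bases with Unkl on the opposite strand. The limma adjusted p was 4.43e-06 for Gga2, 1.86e-05 for Gga3 and 8.21e-06 for Gnptg.

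**Figure D4:**
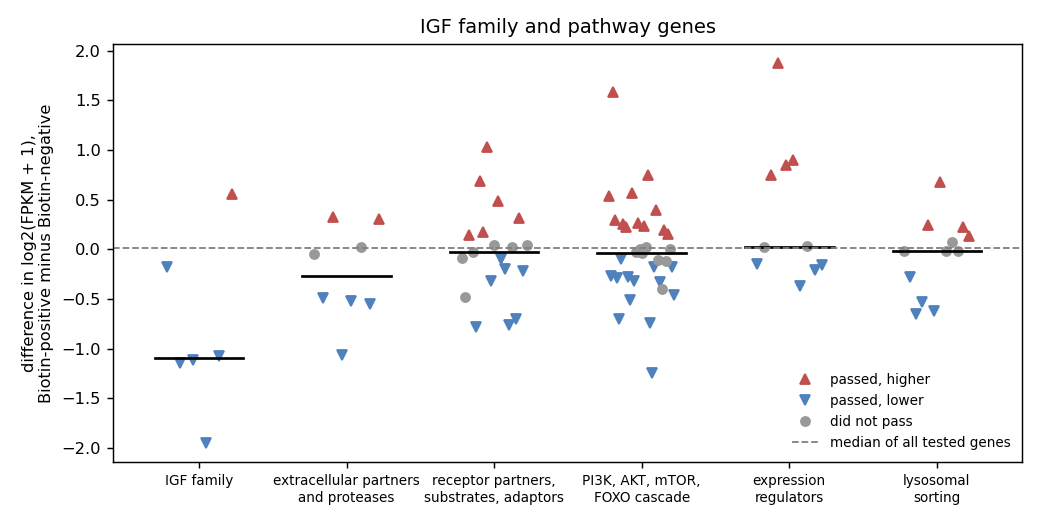
Difference in log2(FPKM + 1), Biotin-positive minus Biotin-negative, on the y axis for the tested members and for the tested genes of 5 pathway lists, with 1 point per gene and a bar at each median; triangles up and down mark genes that passed higher or lower and circles those that did not pass. The members have a median of -1.09, while the lists have medians between -0.27 and 0.03, beside 0.01 for all tested genes (dashed).

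The libraries were checked with marker genes. Of 14 fibroblast markers 10 were tested, of which 7 were lower and 3 higher in Biotin-positive cells (median -0.81). Over all tested genes 36.1% were lower and 37.8% higher. The FPKM of the 14 markers summed to 2465 to 2537 in Biotin-positive libraries and 2008 to 2056 in Biotin-negative ones. Vim and S100a4, the largest parts of this sum, were higher. Vim was at 1418 FPKM in Biotin-positive cells and 658 FPKM in Biotin-negative cells, and S100a4 at 722 and 539 FPKM. Another gene model, Gm42674, matches 60.6% of the S100a4 transcript, so the level of S100a4 is uncertain. Vim, S100a4, Col1a2, Col3a1, Col1a1 and Pdgfrb were expressed in all libraries, but the collagen genes and Pdgfrb were lower in Biotin-positive cells. Col1a2 was at 180 FPKM in Biotin-positive cells and 370 FPKM in Biotin-negative cells, and Col3a1 at 58.2 and 208 FPKM. In the same order, Col1a1 was at 90.3 and 167 FPKM and Pdgfrb at 14.4 and 33.9 FPKM. Among the 10, Dpt was at 2.86 ± 0.284 FPKM in Biotin-positive cells and 27.7 ± 0.571 FPKM in Biotin-negative cells. Twist1 was at 6.52, 6.78 and 5.92 FPKM in Biotin-positive libraries and listed at 0 in all Biotin-negative ones, so it was tested only through the group where it is high. Thy1 stayed at or below 0.121 FPKM, Dcn at or below 0.293 FPKM, Lum at or below 0.0136 FPKM and Fap at or below 0.448 FPKM. Krt7 and Krt8 were the epithelial markers, of 25, that were tested, both only through the group where they are high. Krt7 was at 24.7 ± 1.18 FPKM in Biotin-positive cells and 0.236 ± 0.0759 FPKM in Biotin-negative cells, and Krt8, whose transcript has near-identical copies over 51.8% of it, was at 20.8 ± 0.355 FPKM in Biotin-positive cells and 0.0362 ± 0.0153 FPKM in Biotin-negative cells. The other 23 summed to 1.80 to 2.54 FPKM in Biotin-positive libraries and 2.15 to 2.59 FPKM in Biotin-negative ones, with Epcam and Cdh1 at or below 0.0231 FPKM. Of 12 macrophage and leukocyte markers 3 were tested, Cd14 and Lyz2 higher and Cd68 lower, with sums of 14.8 to 18.0 FPKM in Biotin-positive libraries and 12.0 to 15.2 FPKM in Biotin-negative ones, while Adgre1 was listed at 0 in all libraries and Ptprc at or below 0.0354 FPKM. None of 8 endothelial markers was tested, and their sums were 0.536 to 0.941 FPKM in Biotin-positive libraries and 0.216 to 0.279 FPKM in Biotin-negative ones. The call of Cd68 (limma adjusted p = 0.0402) was lost on leaving out Biotin-positive replicate 2 or 3 or Biotin-negative replicate 1 or 3, with adjusted p values of 0.0543, 0.136, 0.102 and 0.125 in limma. The part of these markers in the IGF results was not tested.

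Over the whole table, FPKM summed to between 337771 and 356681 per library, and 10724 to 10862 genes reached 1 FPKM. Both were higher in Biotin-positive libraries without overlap. The mean sum was 354318 in Biotin-positive cells and 339376 in Biotin-negative cells, and the mean number of genes 10847 and 10728. Pearson correlations of log2(FPKM + 1) were 0.998 to 0.999 within groups and 0.977 to 0.978 across them. The share of FPKM from 13 mitochondrial genes was 3.79 ± 0.0706% in Biotin-positive cells and 3.75 ± 0.162% in Biotin-negative cells (SD, n = 3 each; exact permutation test, two-sided p = 0.8, where 0.1 is the smallest possible). Yap1, a gene named in the title of the series, was at 138 ± 5.00 FPKM in Biotin-positive cells and 28.5 ± 0.429 FPKM in Biotin-negative cells.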

How the data were processed

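RNA of 6 libraries of L929 cells was sequenced. Per the submitters' processing notes, cutadapt 1.9.1, HISAT2 2.2.1 and HTSeq 0.6.1 were used and the build was GRCm39. The program that made the deposited FPKM values is not given in the sources used here, and neither is the strandedness. Of 21816 gene IDs shared with GENCODE vM21 on GRCm38, 99.1% had the same chromosome, start and end, so coordinates are given as GRCm38. Low FPKM values showed no steps of single reads, so the depth is unknown and no interval that needs it is given; precision is the SD over 3 libraries.

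A gene was tested where 3 or more libraries reached 1 FPKM. The test was limma 3.58.1 (R 4.3.3) on log2(FPKM + 1), as a two-sided moderated test with eBayes and a mean-dependent prior. P-values were adjusted over 11029 genes by Benjamini-Hochberg, with a threshold of 0.05. The fit was tested on simulated data. Groups came from the labels. The members and gene lists were chosen with earlier results of these data known. All members were named, with up to 4 passing genes of each pathway list that had the largest difference and no overlap between groups, of which 1 is not reported here; Pappa and Pappa2 were chosen after their values were seen. Copies were searched with blastn 2.17.0 among GENCODE vM21 transcripts (at least 100 bases at 98% identity). Figures were drawn with matplotlib 3.10.9 in Python 3.11.15, with pandas 2.3.3. Alternatives were other pseudocounts, filters, scalings and priors, the replicate number as a block, leaving out each library, a log2 threshold of 1, and, added after the data were seen, leaving out genes at 0 in a whole group and adding Gm49394 to Igf2.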

Additional observations from a re-analysis of the deposited data

How the results depend on the processing

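Of the values recomputed under each alternative, 892 kept their direction and side of the threshold (or moved by less than the spread or 1.5 times), 32 no longer passed, 16 moved by more and 1 changed sign. The 32 include genes that were short of the log2 threshold of 1 in that alternative, although their adjusted p was unchanged. The differences of Igf2r, Igfbp4 and Igfbp6 passed in all 18 alternatives run, from -1.24 to -1.13 for Igf2r, from -1.22 to -1.10 for Igfbp4 and from -1.19 to -1.06 for Igfbp6. That of Igfbp5 ranged from -4.69 to -1.91; the filter admits it only through the group where it is high, so its passing says nothing of stability except without the filter (limma adjusted p = 1.04e-06). Igfbp7 ranged from 0.49 to 0.74. The count of members called higher fell to 0 with a minimum of 5 FPKM, where Igfbp7 is not tested, and to 0 with a log2 difference of at least 1, which Igfbp7 does not reach although its limma adjusted p is 0.000223. Over all genes, that threshold left 376 lower and 583 higher. Rescaling each library to the same sum moved the median of all tested genes to -0.05 and the share of higher genes among those called to 45.0%, from 51.1%. Leaving out each library in turn gave a difference in the mitochondrial share of -0.0292 to 0.131 percentage points, negative only without Biotin-negative replicate 3. The sum of ligand FPKM was 0.537 in Biotin-positive cells and 0.683 in Biotin-negative cells, with overlap, and 0.119 in Biotin-positive cells without replicate 2. Adding Gm49394 to Igf2 turned its direction, to 1.43 in Biotin-positive cells and 0.683 in Biotin-negative cells. With the replicate block, 5 members were called lower and 1 higher, as without it; the block ended the call of the marker Cd68 (limma adjusted p = 0.0663). Same-numbered libraries deviated from their group means with correlations of 0.0371, 0.0120 and 0.0143. Between libraries of unequal number the highest was 0.00223 for Biotin-positive library 1, 0.00493 for library 2 and 0.0341 for library 3. Correlations this close to 0 cannot decide whether same-numbered libraries belong together. Depth is unknown, which limits what can be said of Igf1, Igf2, Igfbp2 and Igfbp3, all below the level for testing.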

Other observations

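Igf2 was 1 of 7 genes that had at least 1 FPKM in 1 library and less than 0.1 FPKM in both others of its group, and the only one in Biotin-positive library 2. Biotin-positive library 1 held 3 such genes and each Biotin-negative library 1. Of the other 6, 5 share same-strand exons with another gene in the table. Gm20716, for example, was at 11.1 FPKM in Biotin-positive library 1 and listed at 0 in the other two, while Adnp, which shares exons with it, was at 14.1 FPKM in that library and at 21.7 and 21.3 FPKM in Biotin-positive libraries 2 and 3. Gm49378 was at 6.70 FPKM in Biotin-negative library 3 and listed at 0 in Biotin-negative libraries 1 and 2, while Ipo4, which shares exons with it, had 38.5 FPKM in that library, beside 43.2 and 42.1 FPKM in libraries 1 and 2 of the group. Gm49450 and Gm49527, the other such genes of Biotin-positive library 1, share exons with Tuba1a and Commd5 in turn. Tuba1a was at 278, 297 and 277 FPKM in Biotin-positive libraries 1 to 3, and Commd5 at 8.19, 9.95 and 9.28 FPKM. Setd1a, which shares exons with Gm49388 of Biotin-negative library 1, was at 12.1, 12.2 and 12.5 FPKM in Biotin-negative libraries 1 to 3. Guca1a of Biotin-negative library 2 has no such partner. How reads were divided between gene models that share exons was not tested.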
